A study of Homo sapiens with 8 samples.

Results

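The unfolded protein response and the amino acid stress response were followed through 40 genes, matched by symbol out of 63677 annotated genes. They were kept as an ATF4 branch of 22 genes and an ATF6/XBP1 branch of 18 genes. The cells were DND-41 and MOLT-4, which are established lines of human acute leukaemia of the T-cell lineage (T-ALL), exposed to ACBI-1 at 100 nM or to its solvent DMSO during 3 h. The 4 groups were DND-41 cells with ACBI-1, DND-41 cells with DMSO, MOLT-4 cells with ACBI-1 and MOLT-4 cells with DMSO, with 2 libraries each, and all were grown in the same serum-containing medium. ACBI-1 is a degrader that recruits the VHL ubiquitin ligase to SMARCA2, SMARCA4 and PBRM1, which are components of SWI/SNF (BAF) chromatin remodelling complexes. No other line and no inactive compound was used here, so each response is that of 1 line to 1 compound. Whether replicates are separate cultures is not in the labels, so a p-value here covers library-to-library spread, possibly technical.

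Cells answer unfolded proteins in the endoplasmic reticulum (ER) through 3 sensors of its membrane. PERK, encoded by EIF2AK3, phosphorylates the initiation factor eIF2, and so does GCN2 when amino acids run short. General translation then falls while the transcription factor ATF4 is translated more, and ATF4 drives genes of amino acid synthesis, uptake and feedback control. IRE1, encoded by ERN1, splices the XBP1 messenger RNA, and ATF6 is cut loose from the membrane, and both resulting factors drive ER chaperones and degradation factors. Translation of ATF4, splicing of XBP1 and cleavage of ATF6 are not visible in counts per gene, so only transcript levels of these factors and of their targets are described. Acute lymphoblastic leukaemia is treated with asparaginase, an enzyme that depletes asparagine.

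Total counts lay between 19867779 and 20082524 per library, so a level of 1 CPM (counts scaled to a common library size) stood for about 20 reads. Transcripts of the mitochondrial genome made up 13.3% to 20.04% of each library, with 17.4% and 13.3% in the DND-41 ACBI-1 libraries, the widest gap between replicates. These libraries also differed most between replicates over all genes, with a chi-square of 15.6 per gene, against 2.99 to 5.10 in the other 3 groups. All 10 T-cell markers were above 1 CPM in every library, and 0 of the 7 myeloid and erythroid markers were. Of 6 epithelial and fibroblast markers 1 was above it in each DND-41 library and 2 or 3 in each MOLT-4 library. Over all libraries PDGFRB reached 57.6 CPM, COL1A1 2 CPM, KRT8 1.49 CPM and EPCAM 0.101 CPM, with KRT18 and COL1A2 at 0. Their summed level in DND-41, mostly PDGFRB, was 33.4 and 34.1 CPM with ACBI-1 against 47.1 and 57.7 CPM with DMSO, and in MOLT-4 it was at most 4.60 CPM. The part of these markers in the results was not tested. Of 4 B-cell markers 2 were above it, with CD79A at up to 1760 CPM in DND-41 and MS4A1 at 0. TLX3, the homeobox oncogene of DND-41, was at 226 to 374 CPM in that line and at most 0.463 CPM in MOLT-4. DND-41 DMSO replicate 2 held low levels of genes otherwise read in MOLT-4 only. For this, 73 genes had at least 20 CPM in every MOLT-4 library and under 1% of the MOLT-4 level in every DND-41 library. Their median level in DND-41 DMSO replicate 2 was 0.556% of the MOLT-4 level, against 0 in the other 3 DND-41 libraries. This rule keeps the share under 1%, and PSAT1 and PYCR1 meet it themselves. By the same rule the MOLT-4 libraries held 0.0861% to 0.144% of the DND-41 level over 38 genes. A share of 0.556% would supply 78.8% of the PSAT1 and 61.5% of the PYCR1 level in DND-41 DMSO replicate 2, and at most 1.05% for any other gene of the 40. In bulk RNA, fewer cells expressing a gene and less RNA per cell cannot be told apart.

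ATF6 and XBP1 are known to act through short promoter elements, and some of these are printed here. The branches are lists of known pathway genes. A difference between them in these elements may follow from that choice and tests nothing. RefSeq promoter windows on build GRCh38.p14, from 250 bases before to 50 bases after a transcription start, were found for 36 of the 40 genes. The search covered 4 motifs on both strands: the ER stress response element (ERSE; CCAAT, 9 bases, CCACG), ERSE-II (ATTGG, 1 base, CCACG), the C/EBP-ATF element (TTGCATCA), which ATF4 binds with a C/EBP partner, and the unfolded protein response element (UPRE; TGACGTGG). ERSE stood in 7 of the 18 matched genes of the ATF6/XBP1 branch (38.9%) and in 0 of the 18 matched genes of the ATF4 branch, against 0.0916% of all 27305 genes with a window. ERSE-II stood in 3 genes of the ATF6/XBP1 branch and in 0 of the ATF4 branch, against 0.0696% of all genes. The C/EBP-ATF element stood in CEBPG and CHAC1 of the ATF4 branch and in HERPUD1 of the other branch, against 1.08% of all genes. UPRE stood in ALDH18A1 and HYOU1, against 0.927% of all genes, and in HYOU1 it overlapped an ERSE-II. The 250 bases before the start are given for 3 genes: HERPUD1, an ER degradation factor, at chr16:56931892-56932141 on the + strand; XBP1 at chr22:28800570-28800819 on the - strand; and HSPA5, the chaperone BiP, at chr9:125241344-125241593 on the - strand. Capitals mark the motifs, and in HERPUD1 they are the C/EBP-ATF element followed by the ERSE-II.
HERPUD1: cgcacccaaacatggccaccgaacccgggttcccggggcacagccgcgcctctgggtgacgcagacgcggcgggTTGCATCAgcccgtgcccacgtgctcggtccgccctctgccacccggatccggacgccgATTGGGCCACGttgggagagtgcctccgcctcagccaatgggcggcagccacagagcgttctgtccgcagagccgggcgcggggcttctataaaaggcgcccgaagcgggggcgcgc
XBP1: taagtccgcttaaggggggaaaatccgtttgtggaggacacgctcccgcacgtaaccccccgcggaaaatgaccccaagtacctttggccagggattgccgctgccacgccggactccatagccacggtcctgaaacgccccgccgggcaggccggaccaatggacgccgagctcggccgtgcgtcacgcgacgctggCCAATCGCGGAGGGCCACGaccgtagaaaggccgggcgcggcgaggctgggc
HSPA5: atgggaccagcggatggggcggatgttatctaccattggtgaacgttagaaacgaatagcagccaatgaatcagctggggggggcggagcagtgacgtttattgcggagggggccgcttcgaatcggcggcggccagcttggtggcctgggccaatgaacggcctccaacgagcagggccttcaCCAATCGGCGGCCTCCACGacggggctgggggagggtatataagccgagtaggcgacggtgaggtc

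Shorter stretches show how the motif letters sit in other genes. CALR (chr19:12938369-12938417, + strand) and PDIA6 (chr2:10812838-10812886, - strand) carry ERSE, on the opposite strand in CALR. SDF2L1 (chr22:21642099-21642139, + strand) carries ERSE-II on the opposite strand. CHAC1 (chr15:40953247-40953284, + strand) and CEBPG (chr19:33374056-33374093, + strand) carry the C/EBP-ATF element, on the opposite strand in CEBPG. A match describes these letters and says nothing of binding.
CALR: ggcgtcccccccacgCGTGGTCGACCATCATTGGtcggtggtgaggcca
PDIA6: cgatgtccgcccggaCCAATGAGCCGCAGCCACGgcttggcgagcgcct
SDF2L1: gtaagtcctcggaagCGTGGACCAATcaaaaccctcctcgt
CHAC1: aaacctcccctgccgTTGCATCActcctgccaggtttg
CEBPG: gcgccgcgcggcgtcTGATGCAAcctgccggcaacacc

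**Figure D1:**
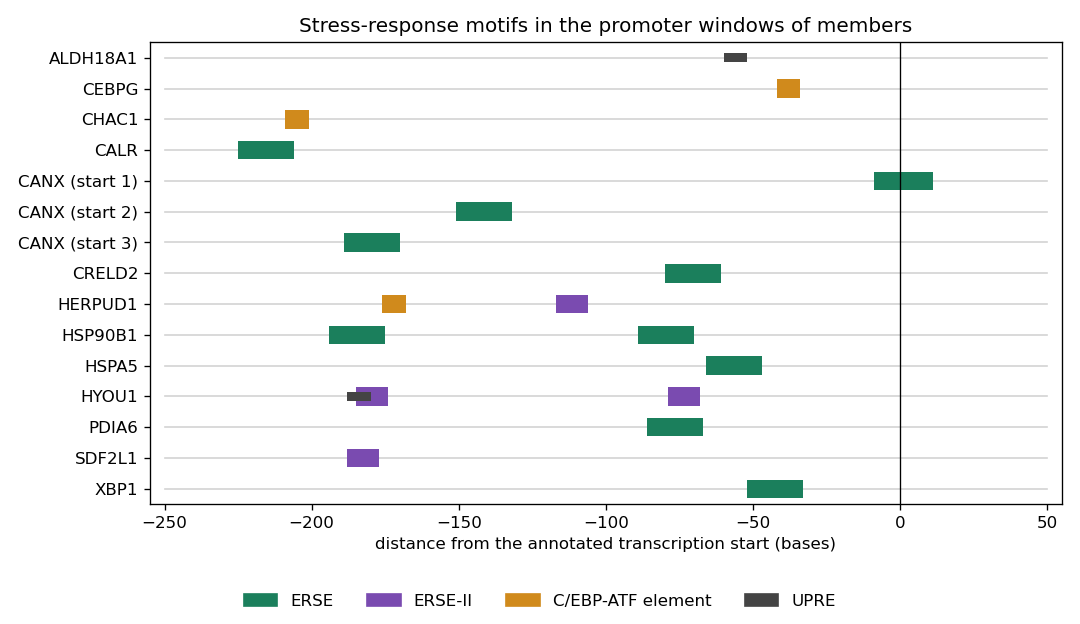
Position of the 4 motifs (coloured boxes) in the promoter windows of the 13 members that hold at least 1, with the distance from the annotated start in bases on the x axis. CANX has 3 annotated starts. ERSE and ERSE-II boxes lie in ATF6/XBP1 branch genes, and HERPUD1 carries both an ERSE-II and a C/EBP-ATF element.

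After ACBI-1, 4 of the 40 genes changed in DND-41 and 6 in MOLT-4, none by 2-fold or more, and no gene of the ATF4 branch rose. In DND-41, TRIB3, VLDLR and PPP1R15A of the ATF4 branch and EDEM1 of the ATF6/XBP1 branch fell, and 0 rose. In MOLT-4, TRIB3, VLDLR and SLC3A2 of the ATF4 branch and XBP1 of the ATF6/XBP1 branch fell, and ERN1 and HERPUD1 rose. A gene was called at a Benjamini-Hochberg adjusted p under 0.05 over all genes tested (edgeR). In DND-41, 38 of the 40 genes passed the filter on low counts, 3.78% of all genes tested rose and 6.05% fell. In MOLT-4 all 40 passed, 3.90% of all genes tested rose and 6.94% fell. Calls over all genes numbered 1378 of 14019 in DND-41 and 1568 of 14470 in MOLT-4. With 4 of 38 and 6 of 40, the branch genes were not called less often than genes at large. As so small a share rose anywhere, 0 rises in the ATF4 branch cannot be told from the background. The median size of the log2 fold change, regardless of sign, was 0.10 for the genes of both branches and 0.13 for all genes tested in DND-41, and likewise 0.10 and 0.13 in MOLT-4. At an unadjusted p under 0.05 the test passed 7 of 38 in DND-41 (18.4%, all genes 21.4%) and 10 of 40 in MOLT-4 (25%, all genes 22.6%). These shares lie close to those of all genes. In DND-41 the ACBI-1 and DMSO libraries overlapped for 12 genes of the ATF4 branch and 9 of the ATF6/XBP1 branch. In MOLT-4 they overlapped for 9 genes of each branch. For the rest of the 40 genes they did not overlap. Separated groups were thus common, and without a call they are no evidence of a response. Their share over all genes was not computed.

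**Figure D2:**
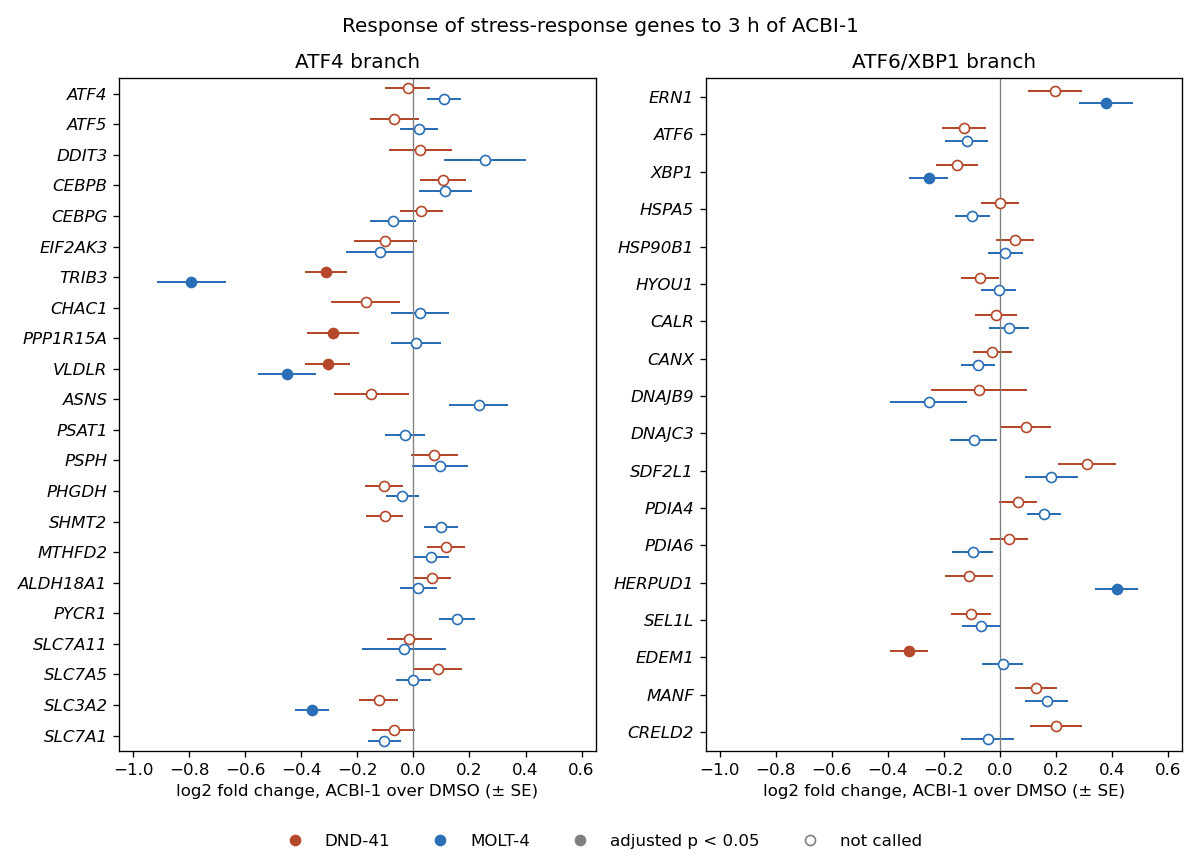
Log2 fold change of each gene after 3 h, ACBI-1 over DMSO, on the x axis, with its SE as a bar, in DND-41 (red, upper point of each row) and MOLT-4 (blue, lower point). Filled points were called; TRIB3 in MOLT-4 lies farthest from 0 at -0.79, and PSAT1 and PYCR1 have no DND-41 point.

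The 5 transcription factors at the head of the ATF4 branch were not called in either line. ATF4 itself had 780.4 and 878 CPM in DND-41 ACBI-1 libraries, against 832 and 868 CPM in DND-41 DMSO libraries. In MOLT-4 it had 429.8 and 433 CPM with ACBI-1, against 408 and 388 CPM with DMSO. The groups overlapped in DND-41 and did not overlap in MOLT-4, where the log2 fold change was 0.11 ± 0.06 (SE; 95% interval -0.01 to 0.23; adjusted p = 0.306), while in DND-41 it was -0.02 ± 0.08 (-0.18 to 0.14; adjusted p = 0.931). ATF5, a related factor that also responds to eIF2 phosphorylation, had log2 fold changes of -0.07 ± 0.09 (DND-41) and 0.02 ± 0.07 (MOLT-4). DDIT3, which encodes the pro-apoptotic factor CHOP, had 13.55 and 15.2 CPM with ACBI-1 and 13.0 and 15.6 CPM with DMSO in DND-41. In MOLT-4 DDIT3 had 7.97 and 9.15 CPM with ACBI-1 and 6.24 and 8.01 CPM with DMSO, and its log2 fold change of 0.26 had an interval of -0.03 to 0.54 (adjusted p = 0.323). CEBPB and CEBPG, the C/EBP partners, had log2 fold changes between -0.07 and 0.11 over both lines. For these 5 factors the unadjusted p was under 0.05 in 0 cases in either line, and DESeq2 called 0. Over all genes tested, 21.4% in DND-41 and 22.6% in MOLT-4 had such a p, and DESeq2 called 664 and 754 genes. With 5 genes, a count of 0 cannot be told from these shares and does not show that the factors stayed unchanged. EIF2AK3, the sensor PERK, had values of -0.10 ± 0.11 (DND-41) and -0.12 ± 0.12 (MOLT-4), with overlapping groups in both.

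TRIB3, a pseudokinase that ATF4 induces and that restrains it in turn, fell in both lines. It had 129 and 159.6 CPM in DND-41 ACBI-1 libraries, against 183 and 179 CPM in DND-41 DMSO libraries. In MOLT-4 the level was far lower, at 7.41 and 7.61 CPM with ACBI-1, against 13.35 and 12.5 CPM with DMSO. The ACBI-1 libraries lay below the DMSO libraries in each line. The log2 fold change was -0.31 ± 0.08 in DND-41 (adjusted p = 0.00505) and -0.79 ± 0.12 in MOLT-4 (adjusted p = 6.11e-05), and the difference of these responses, 0.46 ± 0.15, was not called (adjusted p = 0.265). PPP1R15A, the phosphatase subunit GADD34 that restores translation, fell in DND-41, with 21.75 and 20.5 CPM with ACBI-1 against 27.0 and 25.1 CPM with DMSO. Its log2 fold change there was -0.29 ± 0.09 (adjusted p = 0.0439), and it was 0.01 ± 0.09 in MOLT-4, where the groups overlapped. The difference of -0.32 ± 0.13 between the lines was not called (adjusted p = 0.442). CHAC1, which breaks down glutathione, was not called with values of -0.17 ± 0.12 (DND-41) and 0.02 ± 0.10 (MOLT-4).

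VLDLR, a lipoprotein receptor and known ATF4 target, fell in both lines. It had 40.65 and 43.8 CPM with ACBI-1 against 55.6 and 49.9 CPM with DMSO in DND-41, and 13.1 and 13.1 CPM with ACBI-1 against 18.25 and 17.3 CPM with DMSO in MOLT-4. In each line both ACBI-1 values lay under both DMSO values. The log2 fold changes were -0.31 ± 0.08 in DND-41 (adjusted p = 0.00976) and -0.45 ± 0.10 in MOLT-4 (adjusted p = 0.00431).

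The 8 enzymes of amino acid synthesis and one-carbon metabolism passed the test in neither line with all libraries. In DND-41, 6 of them were tested and their log2 fold changes lay between -0.15 for ASNS, asparagine synthetase, and 0.12 for MTHFD2, a mitochondrial folate enzyme. In MOLT-4 all 8 were tested, between -0.04 for PHGDH, the first enzyme of serine synthesis, and 0.23 for ASNS. DESeq2 called 0 of them in either line. The unadjusted p was under 0.05 for 0 of 6 in DND-41 (all genes 21.4%) and for 2 of 8 in MOLT-4 (all genes 22.6%). So few genes cannot be told from these shares. ASNS had 8.64 and 7.91 CPM with ACBI-1 against 9.12 and 9.44 CPM with DMSO in DND-41. In MOLT-4 it had 16.9 and 16.6 CPM with ACBI-1 against 13.8 and 14.5 CPM with DMSO. The groups did not overlap in either line, with ACBI-1 below DMSO in DND-41 and above it in MOLT-4. Such separation was common among genes of both branches and shows no response by itself. The difference of the ASNS responses was not called (-0.41 ± 0.16, adjusted p = 0.442).

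Among the 4 amino acid transporters, SLC3A2 was called in MOLT-4. It encodes the CD98 heavy chain, which pairs with SLC7A5 and SLC7A11, the light chains for large neutral amino acids and for cystine. SLC3A2 had 125 and 121 CPM with ACBI-1 against 157 and 157 CPM with DMSO in MOLT-4, and 247 and 274 CPM with ACBI-1 against 281 and 293 CPM with DMSO in DND-41. The ACBI-1 values lay below the DMSO values in both lines. The log2 fold change was -0.36 ± 0.06 in MOLT-4 (adjusted p = 0.00016) and -0.12 ± 0.07 in DND-41 (adjusted p = 0.319), and the difference of 0.21 ± 0.09 was not called (adjusted p = 0.548). SLC7A5 had values of 0.09 ± 0.09 (DND-41) and -0.0011 ± 0.06 (MOLT-4). SLC7A11 and the arginine transporter SLC7A1 had log2 fold changes between -0.10 and -0.01.

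Calls in the ATF4 branch were lost in several fits that left 1 library in a group. Calls over all genes fell in these fits too, so a lost call does not show that 1 library carried it. Without DND-41 ACBI-1 replicate 1, 3 genes of all tested and 0 of this branch were called, and TRIB3 was at -0.17, VLDLR at -0.26 and PPP1R15A at -0.33. Without DND-41 ACBI-1 replicate 2, VLDLR (-0.36) and PPP1R15A (-0.24) were lost, and TRIB3 stood at -0.47. Without DND-41 DMSO replicate 1 TRIB3 (-0.30) and PPP1R15A (-0.24) and VLDLR (-0.23) were lost, and without DND-41 DMSO replicate 2 PPP1R15A (-0.34) was lost. PYCR1 entered the test without DND-41 DMSO replicate 1 and was called at -2.55, on the few reads given further on. Without either MOLT-4 ACBI-1 library 0 genes of all tested were called, and without replicate 1 or replicate 2 TRIB3 stood at -0.77 or -0.80, VLDLR at -0.45 or -0.44 and SLC3A2 at -0.39 or -0.33. DESeq2 did not call VLDLR (adjusted p = 0.0687) or PPP1R15A (0.244) in DND-41, nor VLDLR (0.06) in MOLT-4. PPP1R15A was also lost in DND-41 with scaling by total counts (-0.28, adjusted p = 0.0541), and without the filter on low counts none of the calls remained.

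In the ATF6/XBP1 branch the sensors, the regulator XBP1 and the degradation factors held all the calls. ERN1, the sensor IRE1, rose in MOLT-4, with 23.2 and 25.6 CPM with ACBI-1 against 17.9 and 19.4 CPM with DMSO. It had 21.5 and 22.3 CPM with ACBI-1 against 19.6 and 19.0 CPM with DMSO in DND-41. In both lines the ACBI-1 libraries were above the DMSO libraries. The log2 fold change was 0.38 ± 0.10 in MOLT-4 (adjusted p = 0.00879) and 0.20 ± 0.10 in DND-41 (adjusted p = 0.224). ATF6, the sensor that becomes a transcription factor, had 37.4 and 38.2 CPM with ACBI-1 against 41.7 and 41.8 CPM with DMSO in DND-41, and 42.6 and 46.5 CPM with ACBI-1 against 49.95 and 46.2 CPM with DMSO in MOLT-4. The groups overlapped in MOLT-4 alone, and neither response was called, with values of -0.13 ± 0.08 (DND-41) and -0.12 ± 0.08 (MOLT-4).

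XBP1, the factor that IRE1 activates and that acts on ER and secretory genes, fell in MOLT-4. It had 55.2 and 57.2 CPM with ACBI-1 against 65.5 and 67.7 CPM with DMSO in MOLT-4. In DND-41 it had 600.1 and 637 CPM with ACBI-1 against 697 and 693 CPM with DMSO. ACBI-1 values lay below DMSO values in both lines. The log2 fold change was -0.25 ± 0.07 in MOLT-4 (adjusted p = 0.0147) and -0.15 ± 0.08 in DND-41 (adjusted p = 0.242). Their difference was 0.08 ± 0.10 (adjusted p = 0.923).

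Chaperones and folding enzymes, the main products of the branch, were not called in either line. HSPA5 had 135 and 149 CPM with ACBI-1 against 144 and 143 CPM with DMSO in DND-41, and 123 and 123 CPM with ACBI-1 against 133 and 129 CPM with DMSO in MOLT-4. Its log2 fold change was 0.0008 ± 0.07 in DND-41 (95% interval -0.13 to 0.13) and -0.10 ± 0.06 in MOLT-4 (-0.22 to 0.02). The 5 chaperones HSPA5, HSP90B1, HYOU1, CALR and CANX lay between -0.07 and 0.05 in DND-41 and between -0.10 and 0.03 in MOLT-4. DESeq2 called 0 of them, and the unadjusted p was under 0.05 for 0 of them in either line. Over all genes tested, 21.4% in DND-41 and 22.6% in MOLT-4 had such a p, and DESeq2 called 664 and 754 genes. With 5 chaperones, a count of 0 cannot be told from these shares. The disulfide isomerases PDIA4 and PDIA6 and the secreted factors MANF and CRELD2 were not called in either line. Their unadjusted p was under 0.05 for PDIA4 (0.16 ± 0.06) and MANF (0.17 ± 0.08) in MOLT-4 and for CRELD2 (0.20 ± 0.09) in DND-41. PDIA4 passed in MOLT-4 with the replicate number as a block (0.16, adjusted p = 0.0249, edgeR). SDF2L1, a cofactor of BiP, had 27.0 and 34.7 CPM with ACBI-1 against 22.6 and 27.7 CPM with DMSO in DND-41, where the groups overlapped and the log2 fold change of 0.31 ± 0.10 just missed the threshold (adjusted p = 0.0507). It passed, at 0.46, without DND-41 DMSO replicate 2 (adjusted p = 0.0131, edgeR), at 0.32 with scaling by total counts (adjusted p = 0.0386) and at 0.31 with the replicate number as a block (adjusted p = 0.00142). In MOLT-4 SDF2L1 had 25.5 and 22.5 CPM with ACBI-1 against 20.3 and 21.7 CPM with DMSO (0.18 ± 0.09, adjusted p = 0.26).

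Of the 3 degradation factors, EDEM1 fell in DND-41 and HERPUD1 rose in MOLT-4. EDEM1, which directs misfolded glycoproteins to degradation, had 118 and 108 CPM with ACBI-1 against 145 and 141 CPM with DMSO in DND-41. In MOLT-4 it had 70.4 and 80.4 CPM with ACBI-1 against 70.4 and 78.4 CPM with DMSO. The groups overlapped in MOLT-4 and not in DND-41. Its log2 fold change was -0.32 ± 0.07 in DND-41 (adjusted p = 0.00136) and 0.01 ± 0.07 in MOLT-4, and the difference of -0.36 ± 0.10 was not called (adjusted p = 0.142). HERPUD1, an ER membrane protein that recruits the degradation machinery, had 60.8 and 53.6 CPM with ACBI-1 against 43.97 and 41.25 CPM with DMSO in MOLT-4. In DND-41 it had 36.7 and 41.0 CPM with ACBI-1 against 45.5 and 39.25 CPM with DMSO. The MOLT-4 ACBI-1 libraries were the highest of the 8, while the DND-41 groups overlapped. The log2 fold change was 0.42 ± 0.08 in MOLT-4 (adjusted p = 0.000435) and -0.11 ± 0.09 in DND-41 (adjusted p = 0.508). SEL1L, a subunit of the same ubiquitin ligase complex, had values of -0.10 ± 0.07 (DND-41) and -0.07 ± 0.07 (MOLT-4).

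Calls of this branch were lost in the same way in fits that left 1 library in a group. Without either MOLT-4 ACBI-1 library all 3 calls of the branch in MOLT-4 were lost, and without replicate 1 or replicate 2 HERPUD1 stood at 0.32 or 0.51, ERN1 at 0.45 or 0.32 and XBP1 at -0.23 or -0.27. ERN1 (0.32) was also lost without MOLT-4 DMSO replicate 1, and XBP1 (-0.23) without MOLT-4 DMSO replicate 2. EDEM1 in DND-41 was lost without ACBI-1 replicate 1 (-0.39), ACBI-1 replicate 2 (-0.26) and DMSO replicate 1 (-0.31). Without DND-41 DMSO replicate 2, the library with genes of MOLT-4, EDEM1 was called at -0.34. DESeq2 did not call ERN1 (adjusted p = 0.0738) or XBP1 (0.0837) in MOLT-4, and without the filter on low counts none of the calls remained.

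**Figure D3:**
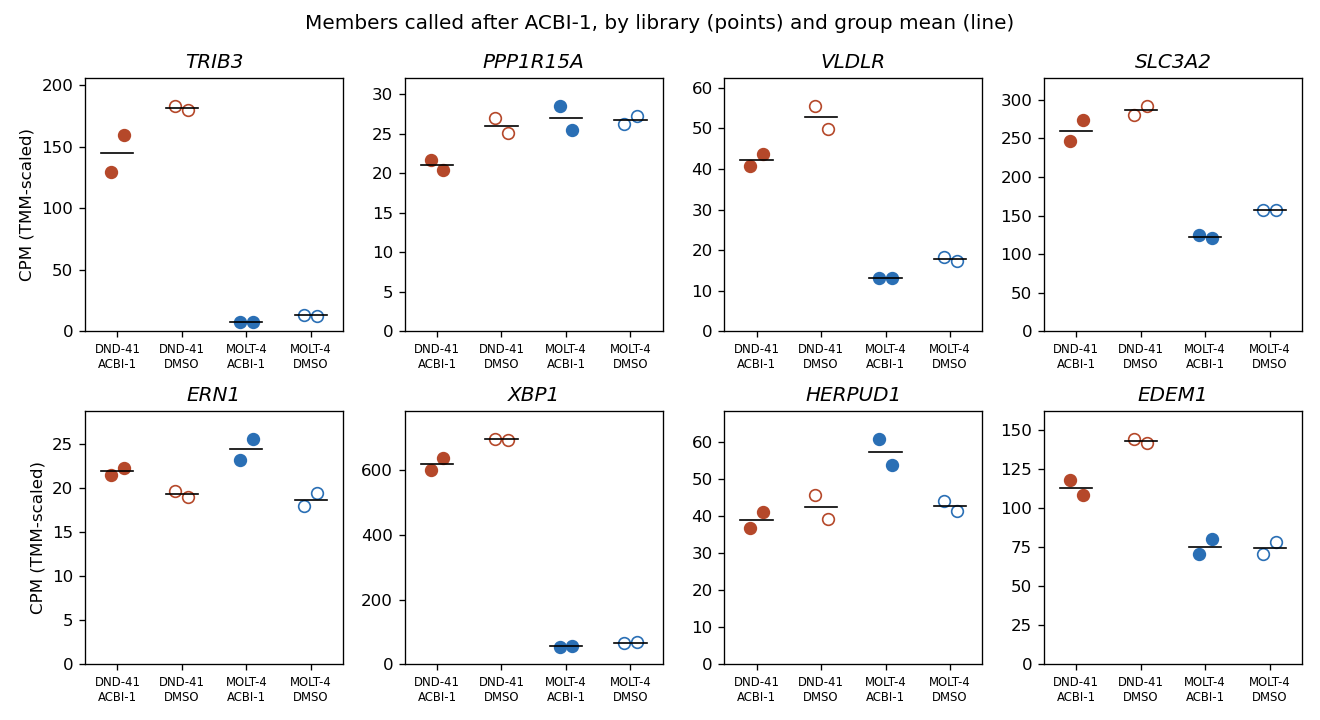
TMM-scaled CPM (y axis, from 0) of the 8 genes called after ACBI-1 in at least 1 line, for each library (points) with the group mean (line), with DND-41 in red and MOLT-4 in blue and ACBI-1 filled. TRIB3, VLDLR and SLC3A2 stand lower with ACBI-1 in both lines, and HERPUD1 stands higher with ACBI-1 in MOLT-4 alone.

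The difference of the responses was called for 1 of the 40 genes, HERPUD1, whose response in DND-41 minus that in MOLT-4 was -0.55 ± 0.12 (95% interval -0.79 to -0.31; adjusted p = 0.022, edgeR). Over all genes tested, 0.442% were called with a higher response in DND-41 and 0.199% with a lower one. No gene of the ATF4 branch was called, with 6 of 22 (27.3%) at an unadjusted p under 0.05, against 7.64% of all genes tested, and DESeq2 called 0 of the 40. The HERPUD1 difference was lost without DND-41 ACBI-1 replicate 1 (-0.48), DND-41 DMSO replicate 1 (-0.44), MOLT-4 ACBI-1 replicate 1 (-0.42), MOLT-4 ACBI-1 replicate 2 (-0.61) and MOLT-4 DMSO replicate 2 (-0.48). TRIB3 was called, at 0.60, without DND-41 ACBI-1 replicate 1. PYCR1 was called, at -2.73, without DND-41 DMSO replicate 1, which leaves as the only DND-41 DMSO library the one with genes of MOLT-4. HERPUD1 is the 1 gene of the 36 with a promoter window that holds both an ERSE-II and a C/EBP-ATF element. A link between these motifs and its response was not tested.

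With DMSO alone, the lines differed far more in these genes than either line did after treatment. Of the 22 ATF4 branch genes, 16 were higher in DND-41 and 4 were lower, against 31.6% of all genes tested that were higher and 32.8% that were lower. Of the 18 ATF6/XBP1 branch genes, 6 were higher and 4 lower in DND-41. The median log2 difference, DND-41 minus MOLT-4, was 0.71 in the ATF4 branch, 0.05 in the ATF6/XBP1 branch and -0.01 over all genes tested. All 5 ATF4 branch transcription factors and all 4 transporters were higher in DND-41.

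TRIB3 differed most in the ATF4 branch among genes higher in DND-41, at 181 ± 2.77 CPM in DND-41 and 12.9 ± 0.595 CPM in MOLT-4 (SD, n = 2 each), a log2 difference of 3.81 ± 0.09 (adjusted p = 3.35e-23). ATF5 followed at 3.44 ± 0.08, CEBPB at 2.11 ± 0.10 and VLDLR at 1.57 ± 0.09. The master factor ATF4 stood 1.10 ± 0.07 higher and DDIT3 1.002 ± 0.14 higher. ASNS (-0.61 ± 0.11) and CHAC1 (-0.90 ± 0.11), which are ATF4 targets as well, were lower in DND-41.

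PSAT1 and PYCR1, the enzymes of serine and of proline synthesis that act downstream of PHGDH and ALDH18A1, were close to absent in DND-41. PSAT1 had 1, 3, 0 and 7 reads in the DND-41 libraries (ACBI-1, then DMSO), against 953, 970, 937 and 987 reads in the MOLT-4 libraries. PYCR1 had 4, 2, 1 and 18 reads in the DND-41 libraries, against 2141, 1966, 1767 and 1847 reads in the MOLT-4 libraries. The highest DND-41 counts of both, 7 and 18, stood in DMSO replicate 2, the library with genes of MOLT-4, and in the other DMSO library the counts were 0 and 1. A count of 3 corresponded to about 0.15 CPM. With DMSO, MOLT-4 over DND-41 was 286.8-fold for PSAT1 (95% counting interval 139 to 714) and 198-fold for PYCR1 (127 to 330), with the reads of DMSO replicate 2 included. With ACBI-1 it was 503-fold for PSAT1 (196 to 1850) and 716-fold for PYCR1 (329 to 1950). PHGDH (0.43 ± 0.06) and ALDH18A1 (0.30 ± 0.06), the genes before them in each path, were higher in DND-41.

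In the ATF6/XBP1 branch the largest difference was in XBP1, at 695 ± 2.72 CPM in DND-41 and 66.6 ± 1.59 CPM in MOLT-4, a log2 difference of 3.38 ± 0.07 (adjusted p = 1.76e-24). EDEM1 (0.94 ± 0.07), the isomerase PDIA6 (0.81 ± 0.07) and MANF (0.60 ± 0.08) were also higher in DND-41. CALR, the lectin chaperone calreticulin (-0.85 ± 0.08), DNAJB9, a BiP co-chaperone (-0.78 ± 0.14), PDIA4 (-0.24 ± 0.06) and ATF6 (-0.20 ± 0.08) were lower in DND-41. ATF6 was not called without DND-41 DMSO replicate 1 (-0.20), DND-41 DMSO replicate 2 (-0.21) or MOLT-4 DMSO replicate 1 (-0.15). It was also lost when libraries were scaled by total counts (-0.15, adjusted p = 0.0836) and when no filter on low counts was applied (-0.20, adjusted p = 0.054). HSPA5 was not called, at 0.14 ± 0.06 (adjusted p = 0.0635), although it passed at 0.19 with scaling by total counts (adjusted p = 0.018), at 0.14 without either DND-41 ACBI-1 library and at 0.13 in a fit of the 4 DMSO libraries alone. Neither ERN1, at 0.05 ± 0.10, nor HERPUD1, at -0.01 ± 0.09, was called.

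**Figure D4:**
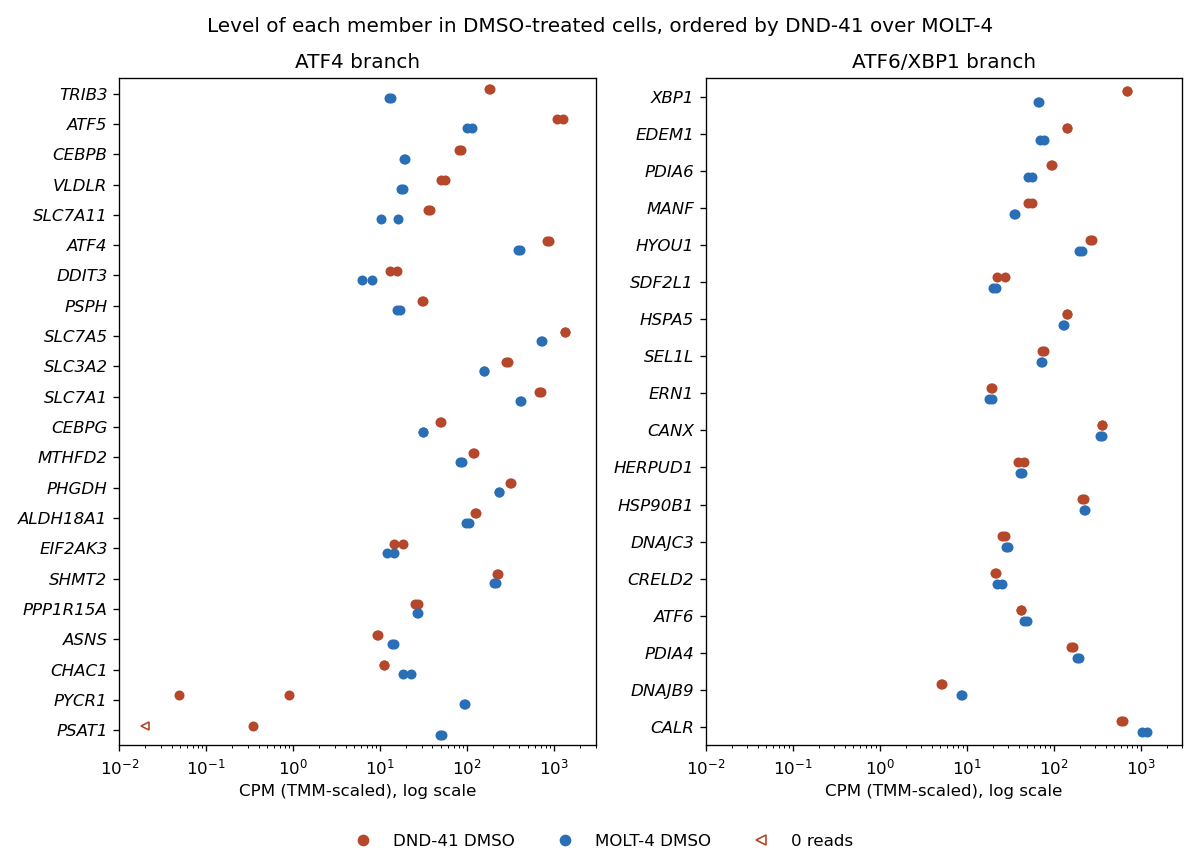
TMM-scaled CPM on a log axis of each gene in the DMSO libraries of DND-41 (red) and MOLT-4 (blue), 1 point per library, ordered by DND-41 over MOLT-4. TRIB3, ATF5 and XBP1 stand farthest to the right in DND-41 relative to MOLT-4, and PSAT1 and PYCR1 lie below 1 CPM in DND-41.

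Per kilobase of exon, the order of levels also differed between the lines. In DND-41 with DMSO the highest levels were ATF5 at 394 ± 41.2 CPM per kb, ATF4 at 338 ± 10.1, the transporter SLC7A5 at 280.3 ± 3.33, XBP1 at 229.6 ± 0.898 and CALR at 225 ± 7.95 (SD, n = 2). XBP1 and CALR did not differ beyond their spread. In MOLT-4 with DMSO, CALR led at 406 ± 36.9 CPM per kb, followed by ATF4 at 158 ± 5.64 and SLC7A5 at 150.4 ± 2.22, both ATF4 values lying above both SLC7A5 values. In MOLT-4 ATF5 stood at 36.3 ± 2.94, XBP1 at 21.99 ± 0.526 and TRIB3 at 3.77 ± 0.173 CPM per kb. ERN1 was among the lowest in each line, at 1.78 ± 0.0413 CPM per kb in DND-41 and 1.72 ± 0.0975 CPM per kb in MOLT-4.

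Further genes of both pathways were read from other lists. These lists were chosen with earlier results of these data known, so their counts are descriptions and test nothing about the pathways. Over all genes tested, 3.78% rose and 6.05% fell in DND-41, and 3.90% rose and 6.94% fell in MOLT-4. At an unadjusted p under 0.05 (edgeR) the test passed 21.4% of all genes in DND-41 and 22.6% in MOLT-4. Of 14 tested genes for the eIF2 kinases and the control of eIF2, 0 were called in either line by edgeR or by DESeq2, with 0 in DND-41 and 3 in MOLT-4 at an unadjusted p under 0.05. Of 25 further genes linked to ATF4 and nutrient stress, 8 of the 20 tested fell and 1 rose in DND-41, and 8 of the 23 tested fell and 0 rose in MOLT-4. The median log2 fold change of this list was -0.15 in DND-41 and -0.20 in MOLT-4, and DESeq2 called 6 in each line. The neutral amino acid transporters SLC1A5, SLC38A2 and SLC1A4 fell in both lines. SLC1A5 had a mean of 391 CPM with ACBI-1 and 494 CPM with DMSO in DND-41 (-0.32 ± 0.08, adjusted p = 0.00359), and 135 CPM with ACBI-1 and 213 CPM with DMSO in MOLT-4 (-0.66 ± 0.06, adjusted p = 4.56e-08). The SLC38A2 values were -0.51 ± 0.07 (DND-41) and -0.54 ± 0.07 (MOLT-4), and those of SLC1A4 were -0.42 ± 0.07 (DND-41) and -0.26 ± 0.06 (MOLT-4).

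SESN2, which restrains mTORC1 when leucine is short, and TXNIP, which restrains glucose uptake, also fell in both lines. SESN2 fell by 0.92 on the log2 scale in DND-41 and by 0.34 in MOLT-4, where DESeq2 did not call it (adjusted p = 0.0579), and the difference was called (-0.60 ± 0.13, adjusted p = 0.0182). In MOLT-4 DDIT4, another brake on mTORC1, fell by 1.06 and STC2, a secreted stress protein, fell by 0.97. The DDIT4 responses differed as well, by 0.86 ± 0.16 in DND-41 minus MOLT-4 (adjusted p = 0.00565). Without the filter on low counts neither difference was called, with an adjusted p of 0.17 for DDIT4 and 0.545 for SESN2 (edgeR). The SESN2 difference was lost without DND-41 ACBI-1 replicate 1 (-0.42), DND-41 DMSO replicate 2 (-0.60), MOLT-4 ACBI-1 replicate 1 (-0.55), MOLT-4 ACBI-1 replicate 2 (-0.58) and MOLT-4 DMSO replicate 2 (-0.52), and the DDIT4 difference without MOLT-4 ACBI-1 replicate 1 (0.83).

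Of the 20 cytosolic aminoacyl-tRNA synthetases, EPRS rose in DND-41 (0.26 ± 0.07, adjusted p = 0.0082) and 0 were called in MOLT-4, where 2 had an unadjusted p under 0.05 and DESeq2 called 0. Among 23 further ER folding genes, ERO1L, an ER oxidase (-0.40 ± 0.08), and TXNDC11 (-0.34 ± 0.09) fell in DND-41, while DNAJC1 rose (0.30 ± 0.10) and ERO1LB fell (-0.48 ± 0.15) in MOLT-4. With DESeq2 none of TXNDC11 (adjusted p = 0.0859), DNAJC1 (0.255) and ERO1LB (0.282) passed, nor did ERO1LB with scaling by total counts (0.0686) and DNAJC1 in the fit of all 8 libraries (0.0534). Among 30 genes of ER-associated degradation and translocation, DERL1, a channel component, fell in both lines, by 0.40 in DND-41 and by 0.32 in MOLT-4. SYVN1, the ubiquitin ligase HRD1, fell in both, by 0.21 in DND-41 and by 0.23 in MOLT-4, and FAF2 and SSR1 fell in MOLT-4, each by 0.23. SYVN1 in DND-41 and FAF2 and SSR1 in MOLT-4 passed neither with DESeq2 nor with scaling by total counts, and SSR1 did not pass in the fit of all 8 libraries. In a list of 20 ER stress signalling genes, BCL2L11, the pro-apoptotic BIM, and the NF-Y subunits NFYC and NFYA, which bind the CCAAT part of ERSE, rose in both lines. The NFYC values were 0.32 ± 0.07 (DND-41) and 0.37 ± 0.06 (MOLT-4), and those of NFYA were 0.27 ± 0.07 (DND-41) and 0.22 ± 0.06 (MOLT-4), where DESeq2 did not call it (adjusted p = 0.0687). BBC3, which encodes the pro-apoptotic PUMA, fell in DND-41 (-1.38 ± 0.16), and WFS1, an ER membrane protein, rose in MOLT-4 (0.70 ± 0.10).

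Calls in these lists were also lost in fits that left 1 library in a group, as were calls over all genes. Of the 18 list calls in DND-41, 18 were lost without ACBI-1 replicate 1, 13 without ACBI-1 replicate 2 and 9 without either DMSO library. Of the 18 list calls in MOLT-4, 18 were lost without either ACBI-1 library, 5 without DMSO replicate 1 and 6 without DMSO replicate 2. Of the 18 in each line, DESeq2 lost 5 in DND-41 and 7 in MOLT-4, scaling by total counts lost 2 in DND-41 and 3 in MOLT-4, and 18 in each were lost without the filter on low counts. No sign changed among them. Over all alternatives SLC1A5 lay between -0.43 and -0.23 in DND-41 and between -0.74 and -0.58 in MOLT-4, and SESN2 lay between -1.11 and -0.74 in DND-41.

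The authors' deposited table for DND-41 called 2 of 38 genes at an adjusted p under 0.05, TRIB3 (0.0274) and EDEM1 (0.00393), against 4.99% of the genes with an adjusted p in it. The authors' deposited table for MOLT-4 called 3 of 40, TRIB3 (0.00245), SLC3A2 (7.53e-05) and HERPUD1 (0.00268), against 5.57%.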

How the data were processed

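RNA of 8 libraries was sequenced strand-specifically with paired ends, per the labels' protocols. The authors deposited raw read counts per gene for each line, with no normalization, per the file headers. Per the submitters' processing notes, the tools were STAR 2.5.2a, featureCounts and DESeq2 1.12.4 and the genome was hg19, with no roles stated. The annotation was not given in the sources used here, nor was the strand setting, and overlapping or antisense genes and near-identical copies may share reads. The authors' deposited comparison tables hold a mean signal per gene, a log2 fold change, a score for its error and its test statistic, and p-values, per the file headers. The sign of those log2 values is not stated and ran opposite ways in the tables, so they gave gene symbols and the authors' p-values only.

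The members and lists were chosen with earlier results of these data known. Symbols were matched through those tables, and for MANF and HYOU1, with 2 identifiers each, the one with the higher mean count was kept. The count test was edgeR 4.0.16 under R 4.3.3, with limma 3.58.1, TMM scaling, the default low-count filter, the quasi-likelihood F-test and adjustment over all genes at 5%. The fit of a line used its 4 libraries. Differences between lines came from a fit of all 8. A log2 value is ACBI-1 over DMSO, or DND-41 over MOLT-4, with SE (95% intervals are 1.96 SE each way). CPM is TMM-scaled over 8 libraries. Levels per kb divide by the exon length of GENCODE 29. No permutation of 2 against 2 libraries can reach 0.05. Counting intervals cover counting error only.

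The genes named are the members called in a line or in the difference, 8 regulators always, the 4 largest DMSO differences per direction and branch, and, of each other list, up to 4 called genes per line with the smallest p. ASNS, SDF2L1, PHGDH, ALDH18A1 and other genes beyond this rule were named after their values were seen. Alternatives were DESeq2 (1.42.0), its size factors, scaling by total counts, no filter, the replicate number as a block, other fits of the libraries, and leaving out each library. The tests were also run on simulated counts. No outcome of that check is given here, so it adds nothing to the values above. All sample columns were matched to the labels.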

Additional observations from a re-analysis of the deposited data

Results flagged for a closer look

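The response of HERPUD1 differed between the lines by the interaction of line and treatment, at -0.55 in DND-41 minus MOLT-4 (edgeR, adjusted p = 0.022), with -0.11 in DND-41 and 0.42 in MOLT-4. Both MOLT-4 ACBI-1 libraries lay above both MOLT-4 DMSO libraries, while the DND-41 groups overlapped. The difference was lost with DESeq2 and without 5 of the 8 libraries in turn.

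Beyond the 40 genes, the responses of DDIT4 (0.86, adjusted p = 0.00565) and SESN2 (-0.60, adjusted p = 0.0182), both known to restrain mTORC1, differed between the lines by the same test. DDIT4 fell by 1.06 in MOLT-4, and SESN2 fell by 0.92 in DND-41 and by 0.34 in MOLT-4. Both differences were lost without the filter on low counts. The SESN2 difference was also lost without several libraries in turn, and the DDIT4 difference without MOLT-4 ACBI-1 replicate 1. The cause of these differences was not tested.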

How the results depend on the processing

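No sign changed under the alternatives run for those of the 40 genes called in a comparison and for the genes of the other lists called after ACBI-1 or in the difference between lines. With ACBI-1 in DND-41, 1378 genes were called, 3 of the ATF4 branch and 1 of the ATF6/XBP1 branch. DESeq2 called 664 genes and 1 of the ATF4 branch, and without the filter on low counts 2 genes and 0 of either branch were called. Scaling by total counts called 2 of the ATF4 branch, without PPP1R15A, and 2 of the ATF6/XBP1 branch. Leaving out 1 library gave 3 to 632 genes, 0 to 2 of the ATF4 branch and 0 to 2 of the ATF6/XBP1 branch. In MOLT-4, 1568 genes were called, with 3 in each branch. DESeq2 called 754 genes and 1 of the ATF6/XBP1 branch, and without the filter 39 genes and 0 of either branch were called. Leaving out 1 library gave 0 to 1430 genes, 0 to 3 of the ATF4 branch and 0 to 2 of the ATF6/XBP1 branch. For the difference between lines, 100 genes, 0 of the ATF4 branch and 1 of the ATF6/XBP1 branch were called, against 13 genes and 0 of the ATF6/XBP1 branch without the filter and 0 of the ATF6/XBP1 branch with DESeq2. Leaving out 1 library gave 49 to 138 genes, 0 to 1 of the ATF4 branch and 0 to 1 of the ATF6/XBP1 branch. Differences between DMSO-treated lines kept their counts within 1.5 times under every alternative, at 9154 to 10442 genes without a library. Of the 30 called there among the 40, EIF2AK3, SDF2L1 and ATF6 were lost under at least 1 alternative and no other was. Except for fewer libraries, the cause of these changes was not tested.

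Deviations of same-numbered libraries correlated weakly (0.098 in DND-41 and 0.08 in MOLT-4, 2 pairs each). With so few pairs this cannot decide whether replicate numbers mark a pairing. With the replicate number as a block, 2230 genes and 2 of the ATF6/XBP1 branch (EDEM1 and SDF2L1) were called in DND-41, and 2228 genes and 4 of the ATF6/XBP1 branch, with PDIA4 gained, in MOLT-4. For the difference between lines the block gave 302 genes, 1 of the ATF4 branch (TRIB3) and 2 of the ATF6/XBP1 branch (HERPUD1 and EDEM1).

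At about 20 reads per CPM, changes in genes near 5 CPM such as DNAJB9 carried an SE of up to 0.17, and PSAT1 and PYCR1 could not be tested in DND-41.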
